A study of Mus musculus with 6 samples.

Results

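Elongating spermatids with high Tnp2 were taken as the barcodes (the droplet tags that stand for cells) that held at least 2000 UMIs (unique molecular identifiers, each counting 1 captured RNA molecule), gave at least 10% of those UMIs to the 4 genes Prm1, Prm2, Tnp1 and Tnp2, and had a ratio of Tnp2 to Prm2 UMIs, each plus 1, at or above the pooled median of 0.80 of all such barcodes. These were 1493 of 48939 barcodes in all (3.05%), of 38235 barcodes with at least 2000 UMIs (3.90%) and of 2986 gated barcodes, whose other 1493 are called Tnp2-low below. The barcodes came from single-cell RNA-seq of whole testes of 8-week-old wild-type C57BL/6 mice (C57BL/6N in the study's methods), fed for 2 weeks with a high-fat (HFD, 3 libraries) or a low-fat diet (LFD, 3 libraries), and no transgene, sort or further treatment was named for either group. The study asked whether germ cells in the testis respond to the diet. Diets are those of the sample titles. In the names of the deposited files the diets are swapped for all 6 libraries, so if these were right the sign of every difference by diet would turn, with its p unchanged. The study's methods give 3 mice per diet for this assay, matching the 3 libraries per diet, while the labels do not tie a library to an animal.

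As the spermatid elongates, the nucleosomes of the round spermatid are taken apart, transition proteins bind the DNA, and protamines then replace them and compact it. The mRNAs of transition proteins and protamines are made early and stored, since transcription stops as the chromatin closes, so that the proteins are translated days later. While the head condenses, the acrosome spreads over the nucleus, a microtubule skirt called the manchette shapes it, and the fibrous sheath and the outer dense fibres are built around the tail. Tnp2 encodes transition protein 2, and Prm2 the protamine that is made as a precursor and cleaved on the DNA.

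Tnp2, Prm2 and Prm1 lie next to each other on chromosome 16, with their RefSeq start sites within 8168 bases, together with Prm3. Tnp1 (chromosome 1), Hmgb4 (chromosome 4) and Tex37 (chromosome 6) lie elsewhere. The proximal promoters of the 4 genes of the rule and of the 2 other markers are shown because the members are defined by how these genes' mRNAs are balanced. Each sequence runs 5′ to 3′ along the gene's strand (the minus strand for all 6) from 150 bases before to 30 bases after the RefSeq start site in GRCm38. Capitals mark the 8 letters TGANNTCA, which cover the cAMP response element TGACGTCA and read the same pattern on both strands, and the letters TATA where they begin 15 to 45 bases before the start.

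Tnp2, chr16:10788626-10788805: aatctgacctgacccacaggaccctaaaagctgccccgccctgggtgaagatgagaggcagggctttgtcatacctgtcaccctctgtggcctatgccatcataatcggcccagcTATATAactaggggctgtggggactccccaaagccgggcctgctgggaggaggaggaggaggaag
Prm2, chr16:10792076-10792255: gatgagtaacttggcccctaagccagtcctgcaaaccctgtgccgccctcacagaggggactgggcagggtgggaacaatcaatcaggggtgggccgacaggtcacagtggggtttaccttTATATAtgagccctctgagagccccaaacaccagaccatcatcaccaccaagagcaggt
Prm1, chr16:10796794-10796973: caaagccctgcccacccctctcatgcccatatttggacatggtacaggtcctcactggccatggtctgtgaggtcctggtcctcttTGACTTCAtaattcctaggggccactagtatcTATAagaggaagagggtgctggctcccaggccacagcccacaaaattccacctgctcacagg
Tnp1, chr1:73015870-73016049: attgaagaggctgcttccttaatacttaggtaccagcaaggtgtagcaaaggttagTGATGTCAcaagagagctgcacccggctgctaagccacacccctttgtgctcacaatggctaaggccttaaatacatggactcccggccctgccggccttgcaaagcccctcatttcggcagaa
Hmgb4, chr4:128260866-128261045: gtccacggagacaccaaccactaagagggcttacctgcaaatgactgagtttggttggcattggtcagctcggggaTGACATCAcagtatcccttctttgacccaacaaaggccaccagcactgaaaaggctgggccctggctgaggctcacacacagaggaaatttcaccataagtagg
Tex37, chr6:70918893-70919072: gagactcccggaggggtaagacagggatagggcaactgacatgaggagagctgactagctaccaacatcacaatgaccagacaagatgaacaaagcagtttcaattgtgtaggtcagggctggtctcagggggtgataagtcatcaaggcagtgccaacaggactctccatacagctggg

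A TGANNTCA match lay 94 bases before the start of Tnp1, 74 before that of Hmgb4 and 64 before that of Prm1. The 3 chromosome 16 genes of the rule held TATA at 35 (Tnp2), 32 (Prm1) and 29 (Prm2) bases before the start. In promoters of 300 bases (250 before to 50 after the start), searched on both strands, TGANNTCA stood in 14.1% of 32851 RefSeq promoters and in 23.6% of the 653 promoters of genes at least 2-fold higher in Tnp2-high than in Tnp2-low barcodes (below). The exact TGACGTCA stood in 1.79% and 3.22%, and TATA at the stated distance in 7.22% and 6.28%. The 32851 promoters were not limited to genes expressed in these barcodes, so the shares of the 2 sets are not matched for expression. The motifs were picked after these promoters were read, and a match is a description of letters and not a site.

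Members were found in every library. HFD replicates 1 to 3 held 540, 96 and 158 of them, and LFD replicates 1 to 3 held 399, 180 and 120. HFD replicate 1 and LFD replicate 1 held the most, and differences by diet are also given within that pair and within the other 4 libraries.

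The ratio that defined the members had an upper and a lower peak. Of the 2986 gated barcodes, 960 had a ratio under 0.1, 277 lay between 0.1 and 0.5, 256 between 0.5 and the pooled median, and 1493 at or above it. The pooled median fell on the left flank of the upper peak. The lowest ratio inside was 0.80 and the highest outside 0.7995. Within the members the ratio ran from 0.80 to 1.55 with a median of 1.01, whereas the median of Tnp2-low barcodes was 0.036. The share of the 4 genes was 10.007% in the member just inside that threshold and 9.992% in the barcode just outside it.

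**Figure D1:**
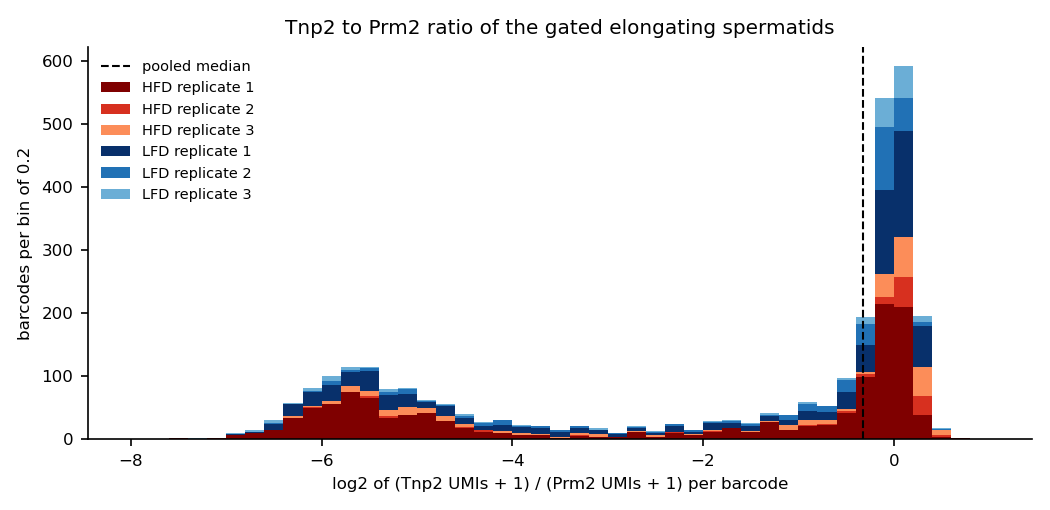
Number of gated barcodes (vertical axis) in bins of 0.2 of the log2 ratio of Tnp2 to Prm2 UMIs (horizontal axis), stacked by library. The upper peak lies around a log2 ratio of 0, a broad lower peak lies between -7 and -4, and the dashed line is the pooled median at or above which a barcode was a member.

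The genes of the rule are given as shares of all UMIs, as a description only. Tnp2 took 4.26 to 5.09% of the members' UMIs in the 6 libraries against 1.55 to 2.55% in Tnp2-low barcodes, and Tnp1 took 2.63 to 3.67% against 1.19 to 2.72%. Prm2 took 4.15 to 5.17% against 8.10 to 10.5%. Prm1, which was not in the ratio, took 5.70 to 7.57% in the members and 5.06 to 9.19% in Tnp2-low barcodes, and the ranges overlapped for Prm1 as for Tnp1, whose lowest member library (LFD replicate 3) lay below the highest Tnp2-low library (HFD replicate 2).

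The label was checked against its markers. All other genes are given in CPM (counts per 1000000 of the UMIs that remain without the 4 genes), summed per library. Each UMI stands for 1 molecule read near its 3′ end, so levels of different genes were compared without a correction for length. Hmgb4, an HMG-box protein of spermatids, had a lowest, median and highest level of 4920, 5804 and 6286 CPM in the members of the 6 libraries, 1652 to 3453 CPM in Tnp2-low barcodes and a mean of 618.5 CPM in all other barcodes with at least 2000 UMIs. Tex37, a testis-expressed gene, had 1146, 1261 and 1336 CPM against 480 to 779 CPM and a mean of 62.9 CPM. For both genes the lowest member library lay above the highest Tnp2-low library.

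Hmgb4 and Tex37 together summed to 6066 to 7457 CPM per library in the members. Markers of other cells had lower sums, of which round spermatids and late spermatocytes had the highest. The 10 listed Sertoli cell markers summed to 34.3 to 125 CPM per library, with Wt1 and Sox9 under 1 CPM in every library. The 8 spermatogonial markers summed to 25.9 to 33.8 CPM and the 8 early spermatocyte markers to 74.5 to 323 CPM. The 8 of pachytene and late spermatocytes summed to 1034 to 1348 CPM and the 9 of round spermatids to 1099 to 1966 CPM. In Tnp2-low barcodes these last sums were 1435 to 1891 and 312 to 465 CPM. In barcodes of at least 2000 UMIs outside the gate they were 2287 to 2674 and 1722 to 2605 CPM. Of 6 Leydig cell markers, Hsd3b1, Hsd3b6 and Insl3 were at 0 in every library, and the 6 together reached at most 3.28 CPM. The 6 macrophage markers summed to 23.3 to 41.9 CPM with C1qa and Lyz2 at 0, 6 peritubular and stromal markers to 2.17 to 4.76 CPM with Dcn and Pdgfra at 0, 3 endothelial markers to 2.64 to 4.06 CPM with Cdh5 at 0, and 3 T cell markers to at most 0.207 CPM with Cd3g and Cd8a at 0. The 4 globin genes were at 0 in 5 of 6 libraries.

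Members held a median of 17608 UMIs (2015 to 184528) against 8289 in Tnp2-low barcodes, and after every barcode was thinned to 2000 UMIs they showed a median of 911 genes against 744. Library totals ran from 39196921 to 95845514 UMIs, and the members' sums from 2362295 to 12169067. Pairs of libraries shared 12 to 28 barcode sequences (0.209 to 0.320% of the smaller library) and no member. Of the members, 85 (5.69%) were among the 3356 barcodes with the highest Scrublet doublet scores.

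Outside the 4 genes, the most abundant mRNAs of the members included genes of the sperm tail, the manchette and energy supply. Smcp, a cysteine-rich protein of the mitochondrial sheath, led with 8383 ± 1288 CPM (SD, n = 6). It was followed by Meig1, a manchette protein needed to build the flagellum (8024 ± 979 CPM), Dbil5, an acyl-CoA-binding protein of spermatids (6513 ± 736), and Ldhc, the lactate dehydrogenase of germ cells (6411 ± 375). Fabp9, a fatty-acid-binding protein of the perforatorium, had 6100 ± 598 CPM and Hmgb4 5769 ± 465 CPM. The next 9 were Eif1, 1700003F12Rik, Gsg1, Gm5617, Gstm5, Spa17, Odf2, Mlf1 and Gpx4, from 5326 down to 3873 CPM. Odf2, an outer dense fibre protein, had 4092 ± 335 CPM here and a mean of 1367 CPM in barcodes of at least 2000 UMIs outside the gate. In Tnp2-low barcodes it was higher than in the members (below).

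Members were next set beside the Tnp2-low barcodes of the same libraries. Because both sets were chosen by values of these barcodes, what follows is a description with no test. A gene was counted where its level differed at least 2-fold in the same direction in all 6 libraries, with 5 CPM added to both levels. Tnp2-low barcodes numbered 737, 26 and 126 in HFD replicates 1 to 3 and 400, 136 and 68 in LFD replicates 1 to 3. Each count therefore also depends on the 26 barcodes of HFD replicate 2. Of 6347 genes with at least 10 CPM in either set, 645 (10.2%) were higher in the members and 5 (0.0788%) were lower.

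The genes with the largest ratios were Hemgn, Ccdc185, Cdyl, Cypt1, Fam71b, 4930471L23Rik, Ccin, Prss52, Cntn1 and Cst13, with median ratios from 18.8-fold down to 12.1-fold. Fam71b is also among the listed round spermatid markers. Cdyl, a chromodomain protein that acts on histone marks in spermatids, had 594, 719 and 748 CPM (lowest, median and highest library) in the members and 19.6 to 123 CPM in Tnp2-low barcodes. Cypt1, of the cysteine-rich perinuclear theca family, had 1209 to 1495 CPM against 45.1 to 272 CPM. Ccin, the actin-binding protein calicin of the sperm head, had 266 to 487 CPM against 14.5 to 69.4 CPM. In each of these genes the highest Tnp2-low library lay below the lowest member library.

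In the other direction the ratios were smaller. Bri3bp, Tbc1d20, Apoe, Spem2, Spem1, Phkg2, Car2, Aldoa, Acsbg2 and Nudt16l2 had the lowest median ratios, between 2.74-fold and 2.39-fold lower in the members. Spem1, which is needed to remove cytoplasm from the head, had 446 to 602 CPM in the members and 1110 to 1526 CPM in Tnp2-low barcodes. Aldoa, an aldolase of glycolysis, had 199 to 245 CPM against 421 to 617 CPM.

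Among 7 chromatin condensation genes outside the rule, 1 was higher by this count and 0 were lower, beside 10.2% and 0.0788% of all genes tested. That gene was Hils1, a linker histone found only in spermatids, with 2860, 3221 and 3687 CPM in the members and 351 to 820 CPM in Tnp2-low barcodes (median log2 ratio 2.65). Tssk6, a kinase needed for chromatin condensation, went the other way with 1138 to 1697 CPM against 2321 to 4395 CPM (median log2 ratio -1.19, not 2-fold in every library). Prm3 had 2539 to 4442 CPM against 3371 to 5896 CPM, with overlap.

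Of 17 histone variant and exchange genes measured, 3 were higher, beside 10.2% of all genes tested, and 0 were lower. The 3 were Cdyl, Phf7 and Hist1h4a. Phf7, a chromatin reader with ubiquitin ligase activity toward histones, had 1913 to 2592 CPM in the members against 430 to 839 CPM. Chd5, a remodeller of the histone-to-protamine exchange, had a median log2 ratio of 1.58 with 283 to 321 CPM against 90.8 to 157 CPM, and missed the count in LFD replicate 2 alone, where the log2 ratio was 0.93. H2al2a, a histone variant that loads together with transition proteins, had 1902 to 2370 CPM against 2201 to 2874 CPM, with a median log2 ratio of -0.23.

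Of 16 transcription regulators, 2 were higher, beside 10.2% of all genes tested. Fhl5, a coactivator of CREM, had 765, 937 and 1031 CPM in the members and 80.3 to 219 CPM in Tnp2-low barcodes, and Sox30, a factor that switches on the round spermatid programme, had 154 to 239 against 33.3 to 64.0 CPM. Crem itself had means of 134 and 129 CPM. Spz1 had 1902 to 2589 CPM against 3801 to 6107 CPM and Mlf1 3262 to 4823 against 2994 to 4166 CPM.

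Of 21 genes of translational control and mRNA storage, 3 were higher, beside 10.2% of all genes tested. They were the cold-shock proteins Ybx1 and Ybx3 and the piRNA protein Mael. Ybx1 had 1536 to 1715 CPM in the members and 287 to 584 CPM in Tnp2-low barcodes, and Ybx3 had 1399 to 1736 against 233 to 487 CPM. Ybx2, the germ cell member of the family that binds stored protamine mRNA, had 635 to 731 CPM against 878 to 1086 CPM, so the 3 family members did not share a direction. Paip2, which frees poly(A)-binding protein from mRNA, had means of 1297 and 1696 CPM.

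Of 24 acrosome and sperm-egg fusion genes, 7 were higher, beside 10.2% of all genes tested, and 0 lower. The 7 were Spaca4, Spaca6, Spaca7, Izumo1, Dkkl1, Lyzl1 and Eqtn. Spaca7 had 333 to 425 CPM in the members and 39.7 to 99.3 CPM in Tnp2-low barcodes, and Izumo1, the sperm ligand of the egg receptor, had 43.1 to 99.5 against 3.63 to 21.1 CPM. The 2 most abundant list members, Fabp9 and Crisp2, were lower with median log2 ratios of -0.65 and -0.77. Dkkl1, the next most abundant, had 1007 ± 174 CPM and a median log2 ratio of 1.49.

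In the list of manchette, head shaping and head-tail coupling genes, 8 of 28 were higher (Sun5, Spag4, Meig1, Actl7b, Capza3, Cylc1, Ccin and Spata46) and 1, Spem1, was lower. Over all genes tested 10.2% were higher and 0.0788% lower. Meig1 had 6685 to 9412 CPM in the members against 2048 to 3610 CPM, and Spag4, a SUN-domain protein of the tail's attachment, 629 to 839 against 60.9 to 193 CPM. Spata6, of the head-tail connection, and Oaz3, an antizyme of the polyamine pathway, had median log2 ratios of -0.31 and -1.16.

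Of 29 genes of the fibrous sheath, dense fibres and mitochondrial sheath, 8 were higher, beside 10.2% of all genes tested, and 0 lower. The 8 were Akap3, Ropn1, Ropn1l, Odf3, Spata19, Tekt5, Tssk1 and Tssk4. The scaffold Akap3 had 558, 608 and 702 CPM in the members and 35.3 to 133 CPM in Tnp2-low barcodes, while its partner Akap4, which is assembled later on the fibrous sheath, had 1334 to 1641 CPM against 2303 to 2902 CPM. Tssk1 had a median log2 ratio of 2.93 and Spata19, of the mitochondrial sheath, one of 2.33. Smcp, Spa17 and Odf2, the 3 most abundant of the list, had median log2 ratios of -1.11, -0.25 and -0.87.

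The lists of metabolism and of ubiquitin are given beside the 10.2% of all genes tested that were higher. Of 18 glycolysis genes 1 was higher, the lactate and pyruvate carrier Slc16a7, with 208 to 291 CPM in the members and 57.8 to 82.1 CPM in Tnp2-low barcodes. Ldhc had 6004 to 7007 against 2081 to 3277 CPM, whereas Gapdhs, the sperm form of GAPDH, had 2878 to 3478 against 5626 to 8130 CPM and Pgam2 a median log2 ratio of -0.43. No gene was counted among 6 of fatty acid oxidation, of which Acsl1, Acsbg2 and Hadha were the most abundant at 378, 101 and 32.7 CPM in the members. Of 26 ubiquitin and proteasome genes 4 were higher, namely Rnf138rt1, Rnf148, Rnf151 (1307 to 2459 against 161 to 481 CPM) and Ube2b, a ubiquitin-conjugating enzyme needed for spermiogenesis (567 to 697 against 123 to 213 CPM). Ubb and Otub2 had median log2 ratios of -0.08 and -0.13.

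None of 12 mitochondrially encoded mRNAs was counted, although their median log2 ratio was -1.24 against 0.25 over all genes tested. The libraries went different ways for them. Their joint share of UMIs was higher in the members in HFD replicate 2 (0.173 against 0.0271%) and LFD replicate 2 (0.281 against 0.228%). In the other libraries it was lower in the members. The Tnp2-low set of HFD replicate 2 held 26 barcodes, with 19 UMIs of mt-Atp6 and 1 of mt-Nd2. The level of mt-Co3 was 165 to 1446 CPM in the members and 69.0 to 3192 CPM in Tnp2-low barcodes, and its log2 ratio ran from -2.18 to 2.76.

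**Figure D2:**
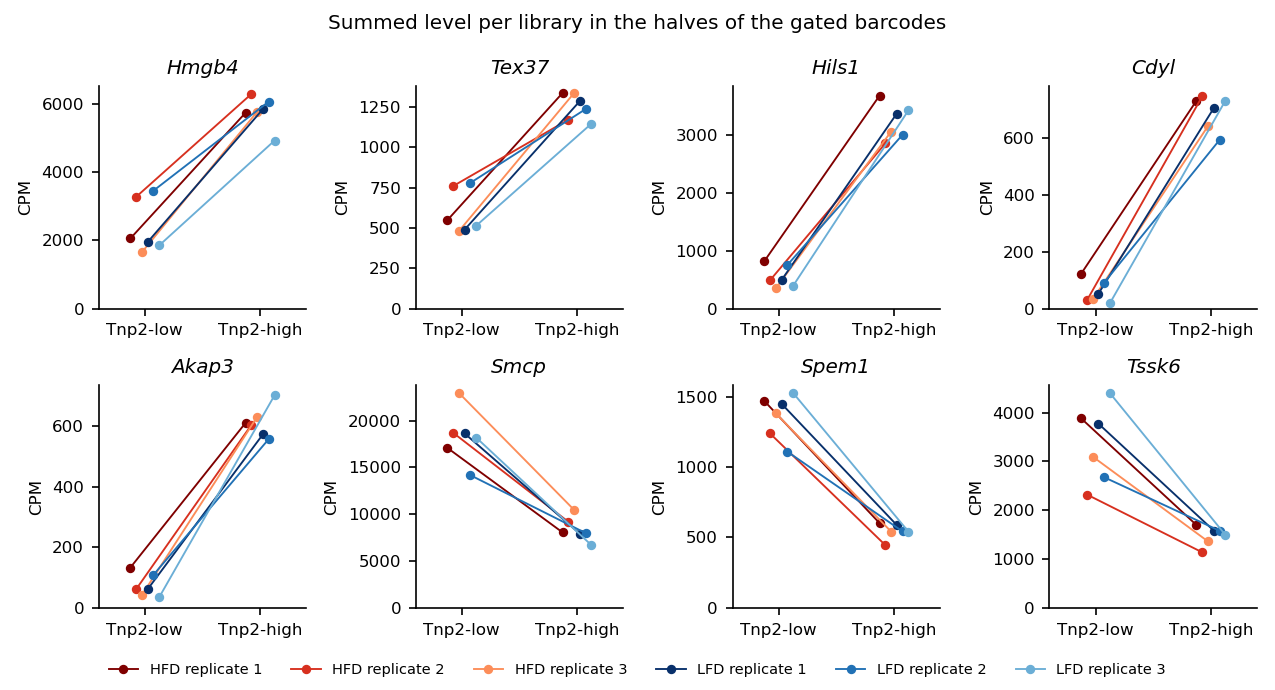
Summed level in CPM (vertical axes, from 0) of 8 genes in the Tnp2-low and Tnp2-high barcodes of each library, 1 line per library. Hmgb4, Tex37, Hils1, Cdyl and Akap3 are higher in the Tnp2-high barcodes of all 6 libraries, and Smcp, Spem1 and Tssk6 are lower in all 6.

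Of the 645 higher genes, 29 (4.50%) lay on the X chromosome, against 1.94% of all genes tested, and 2 on the Y. Median transcript length was 1899 bases for the higher genes and 2476 for all tested. Without LFD replicate 2, whose Tnp2-low barcodes had a median ratio of 0.20 where the other 5 libraries had 0.028 to 0.061, they were 888 higher and 55 lower. With a minimum share of 20% for the 4 genes they were 64 and 0.

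On the other side of the gate lies the neighbouring range, barcodes of at least 2000 UMIs in which the 4 genes took 2% to under 10%. It held 23811 barcodes at a median of 2667 UMIs, and of 8659 genes the members had 398 (4.6%) higher and 1987 (22.9%) lower, or 230 and 2442 in CPM of all UMIs. Of the 10 genes with the lowest ratios there, 9 were mitochondrially encoded, led by mt-Co2 with 506 CPM in the members and 6447 CPM in the range. The 10 genes with the highest ratios were Cby3, Wasf2, Spata32, 1700003O11Rik, Klk1b8, Defb33, Gm11634, Prss51, Odf3b and Tmem189, from 8.78-fold to 6.28-fold.

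Because most of these barcodes were shallow, the 1034 with at least 10000 UMIs (median 30317) were also taken alone, a choice made after the data were seen. They numbered 145, 580 and 85 in HFD replicates 1 to 3 and 119, 57 and 48 in LFD replicates 1 to 3. Their median UMIs were 24626 in HFD replicate 2 and 36651 to 42213 in the others. Of 7695 genes, 219 (2.85%) were higher and 545 (7.08%) lower in the members. Counting CPM over all UMIs instead would lower every log2 ratio to this range by a median of 0.24, and it gives 134 higher and 760 lower genes. H3f3b, which encodes the replacement histone H3.3, was 10.7-fold lower in the members by the median ratio, with 184 to 306 CPM against 1923 to 2829 CPM. 1700001P01Rik, Stambpl1, Creld2 and Ccdc89 were 16.5-fold to 9.35-fold lower. Cby3, a member of the Chibby family, was 9.18-fold higher with 276 to 384 CPM against 25.8 to 44.6 CPM, followed by 1700084D21Rik, Gm4665, Cyp2a12, 1700003O11Rik and Tmem189.

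By list, 13 of 26 acrosome and fusion genes were lower in the members than in the deep neighbouring barcodes and 0 were higher, with a median log2 ratio of -1.38 beside -0.54 over all genes. Over all genes 2.85% were higher and 7.08% lower, and the counts that follow stand beside these shares. Spaca1, needed for the acrosome to form, had means of 131 and 779 CPM. Of 18 transcription regulators 5 were lower (Crem, Tbpl1, Sox5, Hsf2 and Hsfy2) and 0 higher, and of 29 fibrous sheath and tail genes 6 were lower (Tekt1 to Tekt4, Tssk4 and Gk2) and 2 higher (Fscn3 and Spata18). Of the 7 chromatin condensation genes 1 was higher, Tex37, and the median of the list was 1.14. Hmgb4 had 1189 to 2799 CPM in the deep neighbouring barcodes and 4920 to 6286 CPM in the members, not 2-fold in every library. The histone list had 1 of 19 higher (H2al2a) and 1 lower (H3f3b), the manchette list 0 and 2 of 28, glycolysis 1 and 0 of 19, ubiquitin and proteasome genes 0 and 1 of 27, and translational control 0 and 2 of 21. None of 8 fatty acid oxidation genes and none of 11 mitochondrial mRNAs were counted, the latter at a median log2 ratio of -1.74.

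**Figure D3:**
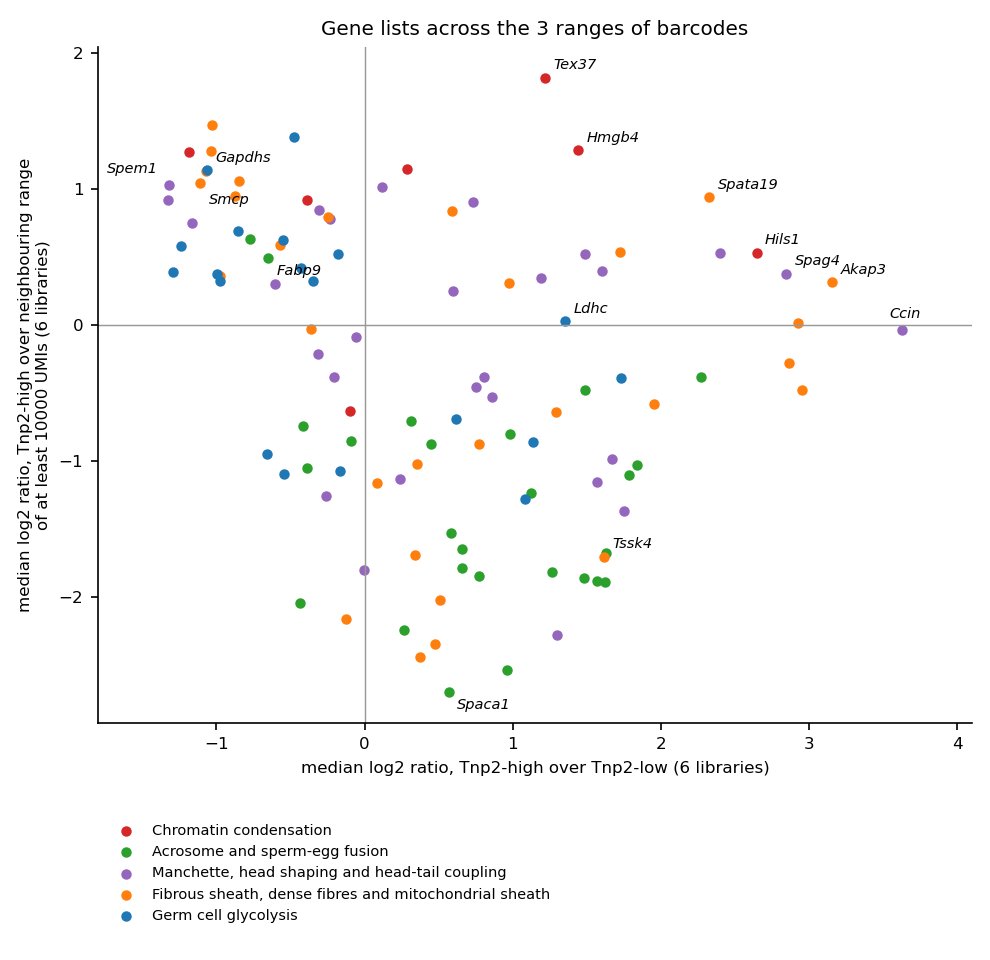
Each point is a gene of 5 lists with at least 10 CPM in 1 of the 3 ranges, placed by its median log2 ratio of Tnp2-high to Tnp2-low barcodes (horizontal axis) and to the neighbouring range of at least 10000 UMIs (vertical axis), over 6 libraries. Tex37, Hmgb4, Hils1 and Spata19 lie in the upper right, Smcp, Spem1 and Gapdhs in the upper left, and most acrosome genes below 0 on the vertical axis.

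Put side by side, the deep neighbouring barcodes, the members and the Tnp2-low barcodes showed 3 patterns among 7773 genes with at least 10 CPM in any of them. These genes were chosen after their values were seen. In all 6 libraries 25 genes (0.322%) were at least 2-fold higher in the members than in both other ranges, 11 (0.142%) stepped down at least 2-fold each time, and 0 stepped up. At 1.5-fold the numbers were 118 (1.52%), 123 (1.58%) and 81 (1.04%), and 0 genes were lower in the members than in both.

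Highest in the members were Fam71f1 (means of 370, 915 and 127 CPM in that order of ranges), Prss58 (157, 570 and 132), the polyadenylation scaffold Sympk (190, 452 and 106), Gm136 (132, 447 and 80.1) and Jazf1 (109, 315 and 89.1). Stepping down were Fam209 (1496, 397 and 96.4 CPM), the acrosome gene Spaca4 (718, 196 and 47.0), Fndc11, Fyb, the acrosomal membrane gene Eqtn (272, 75.2 and 17.6), Tssk4 and the head-tail coupling gene Sun5 (219, 45.6 and 14.2). Stepping up at least 1.5-fold each time were Gsg1 (2398, 4959 and 10680 CPM), Odf2 (2123, 4092 and 7380), Gapdhs (1482, 3237 and 6825), Cabs1 and Akap4 (643, 1439 and 2582).

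Members also varied among themselves. They were split by the same ratio, at 0.96 and 1.07, into 3 near-equal parts of 498, 497 and 498 barcodes, again as a description. The split was pooled over libraries, and a single library held 11 to 217 barcodes of the lowest part. For the middle part these were 21 to 194 and for the highest 23 to 146, so some sums per library are small. Median UMIs were 20606, 18445 and 14786 from the lowest to the highest part, and the share of the 4 genes 17.6, 21.5 and 22.1%. Tnp2 took 4.07, 4.85 and 5.67% of UMIs on average over libraries, Prm2 4.51, 4.78 and 4.98%, and Prm1 6.63, 7.04 and 7.71%, so all of them had their highest mean share in the highest part.

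No gene of 6435 was at least 2-fold higher in the highest than in the lowest part in all 6 libraries, and 15 (0.233%) were lower. No gene of the 11 lists was among the latter. In the mean, Pex5l went from 462 CPM in the lowest part to 283 and 60.1 CPM, and Acrv1, an acrosomal protein of round spermatids, from 255 to 128 and 49.6 CPM. Fam209 went from 647 to 105 CPM and Gtsf1l from 983 to 173 CPM. Their ratios differed between libraries, for Pex5l from -4.24 to -0.10 on the log2 scale. Moving the other way were Papolb, the testis poly(A) polymerase (268, 387 and 478 CPM), Spata19 (1761, 2319 and 2709 CPM), H2al3 (482, 700 and 787 CPM) and Tssk2 (1566, 2010 and 2303 CPM). The acrosome list had a median log2 ratio of -1.04 between these parts and the chromatin condensation list one of 0.34, beside -0.08 over all genes.

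Over the 18 sums of 6 libraries by 3 parts, the level of Ubxn6, a cofactor of the p97 ATPase, was most like that of Tnp2 (Spearman's rho 0.96). Col20a1, 1700029H14Rik, Slfnl1 and Cby3 followed with 0.96, 0.95, 0.95 and 0.95. Over all 1667 genes of at least 100 CPM the median rho was 0.15, with 5% of genes under -0.89 and 5% over 0.85. The lowest were Gtf2a2, a subunit of the general factor TFIIA (362, 213 and 91.3 CPM), and Sucla2, both at -0.99. The sums share libraries and depth and the parts were set by Tnp2 itself, so no p is given.

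**Figure D4:**
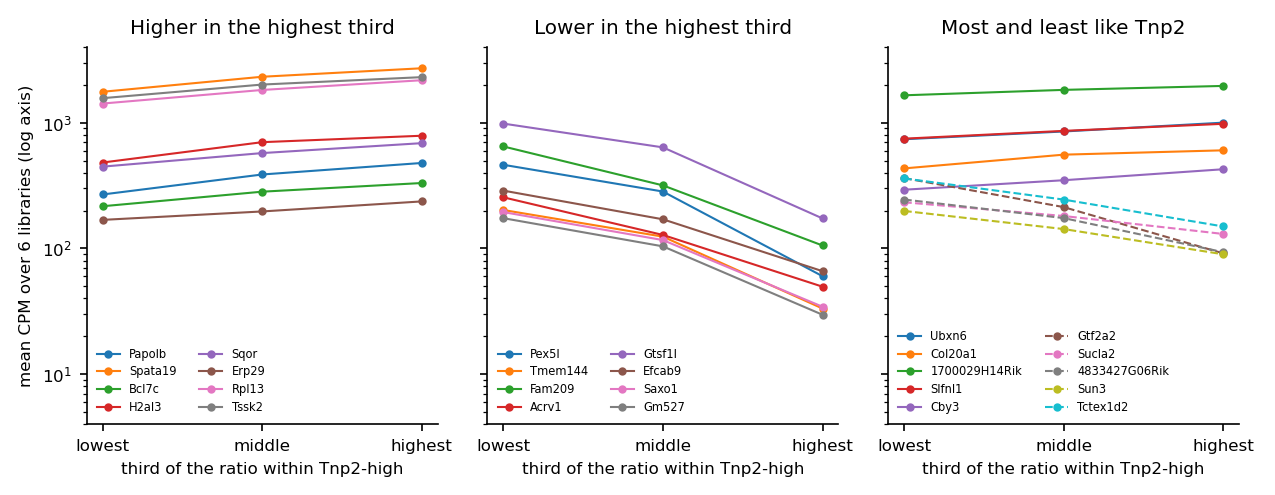
Mean CPM over 6 libraries (vertical axis, log scale) in the lowest, middle and highest of the 3 parts of the ratio within the members. The left panel shows 8 genes higher in the highest part in all libraries (Papolb from 268 to 478 CPM), the middle panel 8 genes lower in it (Pex5l from 462 to 60.1 CPM), and the right panel the genes most like Tnp2 (solid) and least like it (dashed).

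Diet was not used to choose the members, so it could be tested. By edgeR's quasi-likelihood test on UMIs summed per library, 0 of 8582 genes passed an adjusted p of 0.05 (0% called), 267 had an unadjusted p under 0.05, and the smallest adjusted p was 0.838. DESeq2 also called 0 genes, with 204 under an unadjusted p of 0.05. For 671 genes (7.82%) the HFD and LFD libraries did not overlap, 267 higher (3.11%) and 404 lower (4.71%) in HFD. The libraries also differed by GC content. Spearman's rho of GC content with each gene's deviation from its mean over libraries was 0.31, -0.42 and -0.24 in HFD replicates 1 to 3. In LFD replicates 1 to 3 it was 0.24, 0.08 and 0.14. With offsets for GC content and length edgeR called 0 genes, and the part of this trend in the genes without overlap was not tested. Without the filter on low counts edgeR called 16 genes, which were 11 mitochondrial mRNAs, Defb45, Clu, Zfp820 and Gm47283 lower and Sycp3 higher in HFD.

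The 3 genes with the smallest p were all lower in the libraries labelled HFD. Defb45, a beta-defensin gene on chromosome 2 (152593191 to 152599399, minus strand, GRCm38), had 0.827, 0.529 and 0.423 CPM in HFD replicates 1 to 3 and 4.74, 4.27 and 4.22 CPM in LFD replicates 1 to 3. These rest on 8, 1 and 1 UMIs against 35, 12 and 9. The groups did not overlap (log2 change -2.58, SE 0.49, edgeR adjusted p = 0.838). Ldhb, a lactate dehydrogenase subunit of somatic cells, lies on chromosome 6 (142490249 to 142507957, minus strand). It had 1.76, 2.12 and 1.27 CPM in HFD and 7.18, 5.34 and 5.63 CPM in LFD, without overlap (log2 change -1.78, SE 0.40, edgeR adjusted p = 0.999). These rest on 17, 4 and 3 UMIs against 53, 15 and 12. In Tnp2-low barcodes Ldhb had 11.7, 25.4 and 0.923 CPM in HFD (76, 7 and 1 UMIs). In LFD it had 4.19, 5.27 and 5.88 CPM there (15, 7 and 3 UMIs). For both Defb45 and Ldhb the diets overlapped in Tnp2-low barcodes and in barcodes of at least 2000 UMIs outside the gate.

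The Sertoli cell markers in the same barcodes summed to 48.5, 81.4 and 34.3 CPM in HFD and 125, 109 and 79.3 CPM in LFD, all 10 of them detected in at least 1 library, with Wt1 and Sox9 at 0 in HFD replicates 2 and 3. Defb19, the most abundant of them, had 13.02, 36.5 and 12.3 against 40.6, 42.4 and 30.03 CPM. Their part in the differences of Defb45 and Ldhb was not tested.

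mt-Atp6, a subunit of ATP synthase, had 243, 324 and 132 CPM in HFD and 239, 598 and 1144 CPM in LFD, and mt-Nd2, a complex I subunit with the largest change of the mitochondrial mRNAs, had 44.7, 78.8 and 35.5 against 42.6, 137 and 372 CPM. LFD replicate 3 was highest and LFD replicate 1 was among the HFD libraries for both. LFD replicate 3 was also highest for mt-Atp6 and mt-Nd2 in Tnp2-low barcodes (2622 and 766 CPM). The same held in all barcodes of at least 2000 UMIs outside the gate (8914 and 2087 CPM). In the neighbouring range taken alone LFD replicate 1 was highest (9656 and 1641 CPM). In the members the log2 changes of mt-Atp6 and mt-Nd2 by diet were -1.41 (SE 0.39) and -1.70 (SE 0.50), each with an edgeR adjusted p = 0.999. Without LFD replicate 3 they were -0.79 and -0.70, and without LFD replicate 1 they were -1.82 and -2.20, both then with an edgeR adjusted p = 0.0527. All 12 mitochondrial mRNAs tested lay below 0, with a median log2 change of -1.35 beside -0.0019 over all genes, none passed the test, and in none were the groups without overlap.

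The 13 mitochondrial mRNAs together took 0.101, 0.173 and 0.0562% of the members' UMIs in HFD and 0.0991, 0.281 and 0.553% in LFD. The means were 0.110 ± 0.0588% and 0.311 ± 0.229% (SD, n = 3), a difference of -0.201 percentage points (exact two-sided permutation test, p = 0.3, adjusted p = 0.9 over 5 comparisons). With 3 libraries against 3 this test cannot go below 0.1. Within replicate 1 the difference was 0.0022 points, and within the other 4 libraries -0.303 points. It was -0.0800 points without LFD replicate 3 and -0.307 without LFD replicate 1.

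Neither the number nor the depth of the members separated the diets. They were 8.92% (95% Wilson interval 8.23 to 9.66), 1.29% (1.06 to 1.57) and 2.54% (2.18 to 2.96) of the barcodes of at least 2000 UMIs in HFD replicates 1 to 3, and 8.89% (8.09 to 9.75), 1.68% (1.45 to 1.94) and 3.67% (3.07 to 4.37) in LFD replicates 1 to 3. These intervals cover counting error only. Both replicate 1 libraries stood far above the other 4. The means were 4.25 ± 4.09% and 4.74 ± 3.72% (SD, n = 3, exact permutation p = 0.8, adjusted p = 0.9). The difference was 0.033 points within replicate 1 and -0.759 within the other 4 libraries.

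Among the gated barcodes members made up 42.3, 78.7 and 55.6% in HFD and 49.9, 57.0 and 63.8% in LFD. The groups overlapped (difference of means 1.96 points, exact permutation p = 0.9, adjusted p = 0.9). Within replicate 1 the difference was -7.65 points and within the other 4 libraries 6.77 points. Median UMIs per member averaged 17010 ± 2308 and 15279 ± 2370 (SD, n = 3, exact permutation p = 0.5), and median genes after thinning 927.5 ± 43.5 and 938 ± 38.9 (exact permutation p = 0.7), both with an adjusted p of 0.9. The difference of 1732 in median UMIs was 486 without HFD replicate 1, 1071 without LFD replicate 2, 1024 without LFD replicate 3, 2764 without HFD replicate 3 and 3100 without LFD replicate 1.

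No gene of the 11 lists passed the diet test in either direction. The list of the fibrous sheath and tail had 9 of 29 genes without overlap between the diets (31.0%, beside 7.82% of all genes), 4 of them higher and 5 lower in HFD. Higher were Ropn1, Spa17, Smcp and Spata19, and lower Gk2 and the tektins Tekt1 to Tekt4, filament proteins inside the flagellar microtubules. Tekt2 had 112, 93.1 and 67.3 CPM in HFD and 125, 141 and 212 CPM in LFD (log2 change -0.72, SE 0.21, edgeR adjusted p = 0.999). The groups did not overlap, and the replicate 1 libraries were the closest pair across the diets. Smcp had 8055, 9188 and 10460 against 7913, 7985 and 6697 CPM (log2 change 0.34, SE 0.15, edgeR adjusted p = 0.999). The members' median ratio of Tnp2 to Prm2 was 0.987, 1.11 and 1.11 in HFD replicates 1 to 3. In LFD replicates 1 to 3 it was 1.03, 0.965 and 1.00. The part of this ratio in the differences of these and other genes by diet was not tested.

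The transcription regulators had 4 of 17 genes without overlap (Gtf2a1l, Sox5, Spz1 and Mlf1), or 23.5% beside 7.82% of all genes. Ubiquitin and proteasome genes had 3 of 27 (11.1%), and the translational control and manchette lists 2 of 21 (9.52%) and 2 of 29 (6.90%). The acrosome and glycolysis lists had 1 of 26 (3.85%) and 1 of 20 (5%). Chromatin condensation (11 tested), the histone list (20) and fatty acid oxidation (8) had 0. The lists' median log2 changes ran from -0.06 to 0.04 apart from the acrosome list, at -0.25 with 5 of 26 genes above 0, and the mitochondrial mRNAs.

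**Figure D5:**
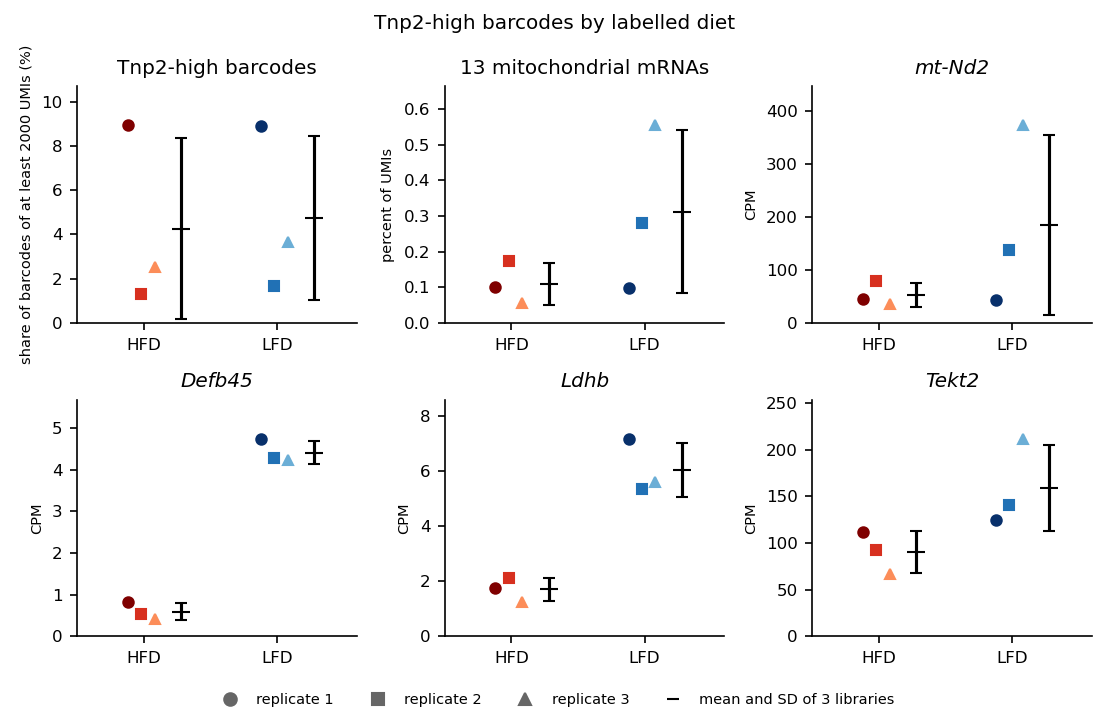
The 6 panels show measures of the members by labelled diet: their share of barcodes of at least 2000 UMIs, the share of UMIs from the 13 mitochondrial mRNAs, and the CPM of mt-Nd2, Defb45, Ldhb and Tekt2. Symbols are libraries and bars the mean and SD of 3. Defb45 and Ldhb do not overlap between the diets, at under 1 and about 4 to 5 CPM and about 1 to 2 and 5 to 7 CPM, while the replicate 1 libraries of both diets lie together in the share of members.

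Whether the diet acted differently in members and Tnp2-low barcodes was tested as an interaction with the library as a block. It called 0 of 8984 genes (edgeR, 92 at an unadjusted p under 0.05, smallest adjusted p = 0.898). The effect of the diet was not shown to differ between members and Tnp2-low barcodes. Without LFD replicate 3 it called Sparc and Clu, and without the filter on low counts Gatm, Ldhb, Sparc and Aard. The Tnp2-low sum of HFD replicate 2 in this test came from 26 barcodes.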

How the data were processed

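Single-cell RNA-seq was done on testis cell suspensions with the 10x Genomics 3′ assay. The deposited UMI counts per gene and barcode were made by the authors with Cell Ranger 6.0.1 on the mm10 reference, 32285 genes in 6 libraries, with no normalization. The kit version differs between the labels and the methods. The authors' integration and cell annotation were not used here.

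The members and lists were chosen with earlier results of these data known. Barcodes were gated as stated above and their counts summed per library. Levels are CPM without the 4 genes of the rule, and ratios between sets add 5 CPM to both. Fewer cells and less RNA per cell cannot be told apart in such shares of a sum. Leaving the 4 genes in would shift all log2 ratios to Tnp2-low barcodes by a median of 0.017 and to the deep neighbouring range by -0.24.

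HFD was compared with LFD by edgeR 4.0.16 (R 4.3.3; filterByExpr, TMM, quasi-likelihood test, Benjamini-Hochberg adjustment) on sums of 3 and 3 libraries, and single values by exact two-sided permutation tests. The edgeR scripts were tested on simulated data. DESeq2 1.42.0, other gates, filters, offsets for GC content and length, a replicate block and each library left out were alternatives. Scrublet (scanpy 1.11.5) scored doublets, which were kept. No 2 libraries held the same counts (chi-square per degree of freedom 2.60 to 10.1 for the members' sums).

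Genes named are the 10 highest and 10 lowest median ratios among genes of at least 100 CPM that go 1 way in all 6 libraries, the 15 most abundant, per list the 3 most abundant and those counted, the 3 smallest diet p-values, the mitochondrial mRNA with the largest diet change, and the 5 most like Tnp2. Other genes, among them those over 3 ranges or 3 parts of the ratio, the least like Tnp2 and further list members, were chosen after their values were seen. Promoters are RefSeq's (GRCm38.p6), with 6 of 6 genes matched. Of the listed genes H3f4 and Sof1 were not found.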

Additional observations from a re-analysis of the deposited data

How the results depend on the processing

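The difference by diet in the share of barcodes of at least 2000 UMIs (-0.495 points) ran from -2.83 to 1.58 with 1 library left out, and was 0.033 within replicate 1 and 0.795 with a minimum share of 5%. That in the share of gated barcodes (1.96 points) ran from -7.95 to 10.3, and was -7.65 within replicate 1 and -4.01 at a share of 5%. That in genes per barcode (-10.3) ran from -30.8 to 13.4, and was 211.5 without thinning. That in the mitochondrial share (-0.201 points) ran from -0.307 to -0.0800 and was 0.0022 within replicate 1. That in median UMIs (1732) ran from 486 to 3100.

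For genes by diet (0 called), edgeR called 16 without the filter on low counts, 1 (mt-Cytb, lower in HFD) at a minimum share of 20%, and 5 mitochondrial mRNAs with GC and length offsets without LFD replicate 1, an alternative chosen after seeing the data. Same-numbered libraries correlated at 0.400, 0.210 and -0.131 in their deviations from the group means. Differently numbered libraries of the 2 diets correlated at -0.450 to 0.269. The replicate 1 libraries were thus the most alike across the diets, while replicates 2 and 3 lay within the range of differently numbered pairs. A pairing by number was not shown for all replicates. The replicate block called 0 genes, with 379 at an unadjusted p under 0.05 against 267 and a smallest adjusted p of 0.0788. The interaction called 4 genes without the filter and 0 to 2 with a library left out.

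Counts against Tnp2-low barcodes depended on the gate. The 645 higher and 5 lower genes became 290 and 1 with at least 5000 UMIs, 179 and 1 at a share of 5%, 64 and 0 at 20%, 414 and 1 without the top Scrublet scores, and 4 and 0 with each library's own median ratio (0.535 to 1.08). The lower genes were 2 in CPM of all UMIs, 9 with means over barcodes and 5 to 55 with a library left out. In CPM of all UMIs the 398 genes higher than in the neighbouring range became 230, and the 219 for its deep barcodes 134. Of 280 alternative values for the 20 genes named against Tnp2-low barcodes, 57 moved by over 1 SD and 0 reversed. Members' depth limits low genes, as with the 1 to 35 UMIs behind Defb45.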
